A study of Mus musculus with 8 samples.

Results

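The T cell receptor complex and its first signalling steps were followed through 10 genes: Cd3d, Cd3e, Cd3g, Cd4, Cd8a, Lck, Zap70, Cd5, Tcf7 and Cd52. They were taken from the 13655 genes that the probe sets of both array types name. Every probe set whose annotation gave 1 of these genes, under its current or an older symbol, was kept. This found 12 probe sets among 24965, for 8 of the 10 genes, 11 of them on MG-U74A and the other on MG-U74B. No probe set was annotated to Lck or Tcf7, so both are not analysed here. The symbol Tcf1 has been used for more than 1 mouse gene, Tcf7 among them, and by itself it assigned no probe set.

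The series measured total RNA of mouse pancreatic islets on 2 types of Affymetrix array, MG-U74A and MG-U74B. The groups were wild type mice and mice labelled Tcf1 knock-out, with 2 arrays of each genotype on each type, 8 arrays in all, which the design text calls biological replicates. The sources used here give no age, strain, islet isolation or construction of the knock-out allele. The transcript of the targeted gene is not analysed here, so the genotypes are those of the labels. Whether the replicates came from separate animals is not given either, so the p-values reflect how far these arrays differ among themselves, in part perhaps for technical reasons.

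T cells recognise peptides through a receptor whose variable chains bind the peptide and its presenting molecule. The chains cannot signal alone: the CD3 proteins encoded by Cd3d, Cd3e and Cd3g, and the zeta chain encoded by Cd247, carry the activation motifs. The coreceptors CD4 and CD8 bring the kinase Lck to the complex, Lck phosphorylates the motifs, and the kinase Zap70 binds them and passes the signal on. Cd5 encodes a surface protein that damps this signal, Tcf7 a transcription factor of T cell development, and Cd52 a short surface glycoprotein of lymphocytes and other leukocytes. Healthy islets hold few lymphocytes, and T cells can enter islets during inflammation.

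The sequences upstream of the start sites are shown for Cd3d and Zap70, each of which had a probe set past the test, and for Cd3g, whose start lies 1355 bases from that of Cd3d on the opposite strand. They come from RefSeq on the mouse build GRCm38.p6, where 8 of the 10 genes matched an entry. Each runs 5′ to 3′ on the gene's own strand and ends at the base before the start site, 250 bases in all. Capitals mark matches, on either strand, to short motifs of 5 factor families active in T cells, TCF/LEF, RUNX, ETS, E-box and GATA factors, whose letters follow the sequences.
Cd3d, plus strand, chr9:44981536-44981785: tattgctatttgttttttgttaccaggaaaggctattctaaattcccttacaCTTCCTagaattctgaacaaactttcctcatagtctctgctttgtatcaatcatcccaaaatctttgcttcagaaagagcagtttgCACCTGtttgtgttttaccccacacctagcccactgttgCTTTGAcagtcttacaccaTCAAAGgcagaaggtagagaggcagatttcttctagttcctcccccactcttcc
Cd3g, minus strand, chr9:44980432-44980681: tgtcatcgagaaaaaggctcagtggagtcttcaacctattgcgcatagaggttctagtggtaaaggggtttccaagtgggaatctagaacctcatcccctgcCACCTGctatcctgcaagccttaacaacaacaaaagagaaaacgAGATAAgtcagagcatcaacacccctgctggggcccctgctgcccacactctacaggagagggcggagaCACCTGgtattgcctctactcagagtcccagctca
Zap70, first start, plus strand, chr1:36761548-36761797: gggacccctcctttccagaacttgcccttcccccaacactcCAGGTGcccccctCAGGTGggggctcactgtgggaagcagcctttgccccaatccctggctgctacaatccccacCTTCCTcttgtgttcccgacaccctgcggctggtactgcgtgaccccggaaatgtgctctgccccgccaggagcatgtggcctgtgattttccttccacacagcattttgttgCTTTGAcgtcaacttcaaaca
The Cd3d window held 2 TCF/LEF matches, which begin 73 and 54 bases before the start and lie on opposite strands. It also held 1 ETS and 1 E-box match. The Cd3g window held 2 E-box matches and 1 GATA match. The Zap70 window held 1 TCF/LEF, 1 ETS and 2 E-box matches. Of 12 windows of 8 members, some of them alternative starts of 1 gene, 2 held the TCF/LEF letters, CTTTGA, against 13.8% of 32851 mouse windows of the same length. The ETS letters, AGGAAG, were in 7 of the 12 windows and in 29.5% of all. The E-box letters searched, CAGGTG, were in 6 and in 17.2% of all. The RUNX letters, TGTGGT, were in 2 and in 14.0% of all. The GATA letters, AGATAA, were in 1 and in 9.99% of all. A match is a description of these letters and not a measured binding site.

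Transcripts of Cd52, of 1 of the probe sets for Cd3d and of 1 of the 3 for Zap70 rose in knock-out islets, while Cd4 and Cd3e on MG-U74B did not pass the test, and Cd3g, Cd8a, Cd5 and Cd3e on MG-U74A were too low to test. Intensities are the deposited linear values after each array was brought to 1 common mean. A value below 0 means that the probes with a deliberate mismatch were brighter than the matched ones. Log2 changes are knock-out minus wild type after values below 0 were set to 0 and 25 was added, which understates changes of low genes. Errors of intensities are standard deviations of 2 arrays, and those of log2 changes are standard errors. Intensities of different probe sets were not set against each other, since each has its own brightness. Where they are summed over a list, the brightest probe sets weigh most.

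**Figure D1:**
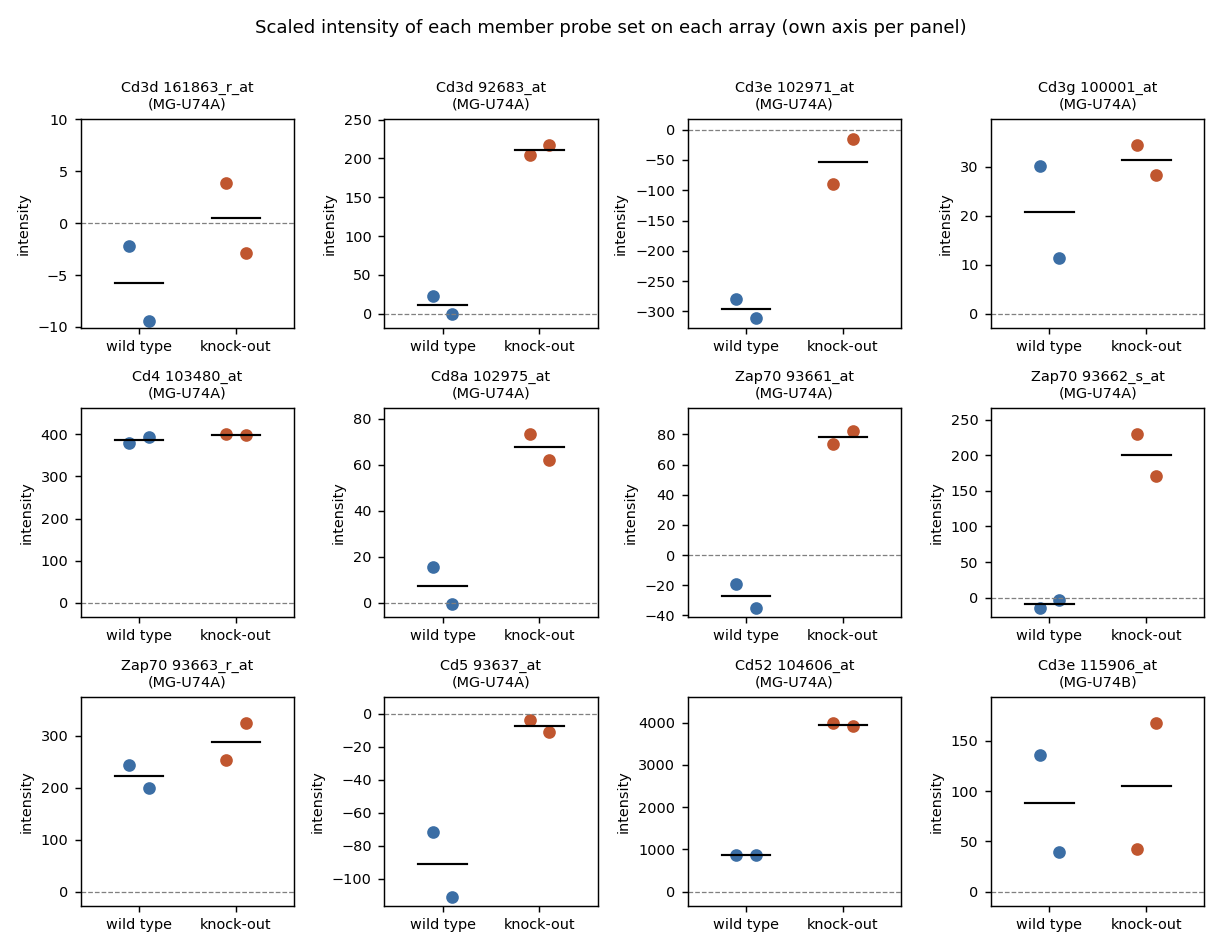
Scaled intensity (arbitrary units, a separate axis in each panel) of the 12 member probe sets, with 1 point per array, wild type in blue and knock-out in orange; the black bar is the mean of 2 arrays and the dashed line is 0. Cd52 rises from a mean of 874 to 3955, Cd3d 92683_at and Zap70 93662_s_at leave a wild type level near 0, and the genotypes overlap for Cd3g, Cd3d 161863_r_at and Cd3e on MG-U74B.

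Cd3d, the delta chain of CD3, was measured by 2 probe sets on MG-U74A. Probe set 92683_at read 22.9 and -0.90 on the wild type arrays and 205 and 217 on the knock-out arrays. Both knock-out arrays were therefore far above both wild type arrays, which lay around 0. Its mean was 11.0 ± 16.8 in wild type and 211 ± 8.63 in knock-out (SD, n = 2), and it rose by 2.77 ± 0.38 on the log2 scale (limma, adjusted p = 0.00603). No ratio is given, since 1 wild type array was listed below 0, and the size of the log2 change moves with the constant. It lay between 2.11 and 3.41 over the 11 alternatives in which it was tested. Probe set 92683_at reached the level for testing only through its knock-out arrays, so it had to differ, and its p-value is a description. The other Cd3d probe set, 161863_r_at, read -2.20 and -9.40 in wild type and 3.90 and -2.90 in knock-out, at the background in both genotypes. Its knock-out values overlapped those of wild type, and it was too low to be tested.

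Cd3e, the epsilon chain, has 1 probe set on each array type. On MG-U74A, 102971_at was listed below 0 on all 4 arrays, at -279.8 and -311.3 in wild type and -89.7 and -15.7 in knock-out, and was not tested. Values below 0 carry no level, so their order says nothing of the transcript. On MG-U74B, 115906_at read 136 and 39.9 in wild type and 42.5 and 167 in knock-out. Each genotype had 1 high and 1 low array, so the groups overlapped. The means were 88.1 ± 68.1 and 105 ± 88.2, and the log2 change of 0.16 ± 0.77 did not pass the test (limma, adjusted p = 0.903). It turned to -0.50 without wild type replicate 2 and to -0.60 without knock-out replicate 2.

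Cd3g, the gamma chain, read 30.2 and 11.4 in wild type and 34.4 and 28.3 in knock-out on 100001_at. Knock-out replicate 2 lay below wild type replicate 1, so the genotypes overlapped. The means of 20.8 ± 13.3 and 31.4 ± 4.31 were under the level at which probe sets were tested, 62.5 over the 4 arrays. Of the 3 CD3 genes, which share 1 chromosome region and whose proteins assemble together, a rise was thus measured for 1 probe set of Cd3d, and no level was measured that allowed a test of Cd3g. In bulk RNA such as this, fewer or more cells of a type and less or more RNA per cell cannot be told apart.

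The coreceptor genes differed. Cd4, the coreceptor of helper T cells, which some macrophages and dendritic cells also carry, read 379 and 393 in wild type and 400.03 and 399 in knock-out on 103480_at. Both knock-out arrays were above both wild type arrays, by a small step. The means were 386 ± 10.1 and 399 ± 0.922, a ratio of 1.03, and the log2 change of 0.05 ± 0.07 did not pass (limma, adjusted p = 0.583, between 0.248 and 0.896 over 12 alternatives). Cd8a, the alpha chain of the coreceptor of cytotoxic T cells, read 15.3 and -0.80 in wild type and 73.1 and 62.2 in knock-out on 102975_at. Its groups did not overlap, but at means of 7.25 ± 11.4 and 67.7 ± 7.71 it was under the level for testing. With no filter on level its log2 change was 1.54 ± 0.31 and did not pass either (limma, adjusted p = 0.0610).

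Zap70, the kinase that binds the phosphorylated CD3 and zeta motifs, was measured by 3 probe sets that differed from each other. Probe set 93662_s_at read -14.5 and -2.80 in wild type and 230 and 171 in knock-out. The wild type pair was listed below 0 and both knock-out arrays stood well above it. The log2 change was 3.16 ± 0.25 (limma, adjusted p = 0.00132), with means of -8.65 ± 8.27 and 200.5 ± 41.1. The wild type pair has no spread once values below 0 are set to 0, so this error rests on the knock-out pair and on limma's pooling. The change lay between 2.31 and 4.08 over 11 alternatives, all of which passed.

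The second Zap70 probe set, 93661_at, read -19.0 and -35.0 in wild type and 73.8 and 82.5 in knock-out. Its groups were also apart, at -27.0 ± 11.3 and 78.2 ± 6.15, but its mean over the 4 arrays was under the level for testing. With no filter on level it rose by 2.04 ± 0.07 (limma, adjusted p = 0.00388). Here too the wild type pair has no spread once set to 0, so this error rests on the knock-out pair and on limma's pooling. Without a filter that pooling took in probe sets at 0 on all 4 arrays, such as Cd5 93637_at (standard error 0.0017). This small error and its p-value are therefore descriptions. The third, 93663_r_at, read 243 and 200 in wild type and 254 and 323 in knock-out. It was well above 0 in wild type, unlike the other 2. Its means were 221 ± 31.0 and 288 ± 49.3, and the log2 change of 0.34 ± 0.17 did not pass (limma, adjusted p = 0.157). In Affymetrix naming the suffix s marks a probe set that can match several transcripts, and r a probe set for which a design rule was relaxed.

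Cd5, which restrains signalling through the receptor, was listed below 0 on all 4 arrays by 93637_at, at -71.5 and -111 in wild type and -3.60 and -10.8 in knock-out. It was not tested, and no level can be read from these values.

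Cd52, the leukocyte surface glycoprotein, read 871 and 877 on the wild type arrays and 3979 and 3931 on the knock-out arrays (104606_at). The arrays of a genotype nearly coincided, and the genotypes lay far apart. The means were 874 ± 4.03 and 3955 ± 34.0, a ratio of 4.53, and the log2 change was 2.15 ± 0.03 (limma, adjusted p = 9.39e-05). It lay between 2.12 and 2.18 over 12 alternatives, all past the threshold.

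Of the 11 member probe sets on MG-U74A, 5 reached the level for testing and 3 of them rose. None fell, and at an unadjusted p under 0.05 in limma these counts were 3 and 0. Among all 7517 tested probe sets of this type 23.9% rose and 29.0% fell, so a change was common on these arrays. Cd3d 92683_at and Zap70 93662_s_at reached the level only through their knock-out arrays, and such a probe set had to differ, so the count of 3 is a description. Both knock-out arrays lay above both wild type arrays for 9 of the 11, where the same held for 33.6% of all MG-U74A probe sets but controls. In 2 of those 9, Cd3e and Cd5, all 4 values were below 0. By size of change, 98.8% of the tested probe sets had a lower log2 change than Zap70 93662_s_at, 98.1% than Cd3d 92683_at, 96.6% than Cd52, 71.9% than Zap70 93663_r_at and 58.0% than Cd4. The first 2 of these probe sets had to differ, and their change moves with the constant, so their ranks are descriptions too. On MG-U74B the 1 member probe set was tested and did not pass, also at an unadjusted p, where 8.59% of the tested probe sets rose and 8.87% fell.

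Other genes of the pathway went the same way in part. Of 68 genes from the zeta chain to costimulators and cytokine receptors, 46 had a probe set on MG-U74A and 32 were tested, each by its brightest probe set. Of these 11 rose, 3 fell and 18 did not pass, beside 22.7% of all tested genes that rose and 30.2% that fell. Their median log2 change was 0.20, against -0.11 over all tested genes. Ptpn22, Ptprc, Thy1 and Il7r, 4 of the 11, had a wild type mean under the level for testing and reached it only through their knock-out arrays, so they had to differ, and the count and median are descriptions. Of 18 regulators and homing genes of T cells, 9 were tested, 7 rose and 2 did not pass. None fell, also at an unadjusted p under 0.05 in limma, and the median was 1.54. Lef1, Ikzf1 and Runx1, 3 of these 7, likewise reached the level for testing only through their knock-out arrays. The summed intensity of the tested pathway genes was 6933 to 7268 in wild type and 9451 to 9620 in knock-out, and that of the regulators 1509 to 1518 and 4169 to 4857. In wild type 7 of the 46 pathway genes were at or below 0 on both MG-U74A arrays by every probe set of that type: Cd2, Tec, Cbl, Sh2d1a, Ctla4, Icos and Ly9. In knock-out there were 2, Rasgrp1 and Icos. On MG-U74B, however, Cbl 116969_at read 714 and 803 in wild type and 603 and 856 in knock-out. There Icos 115165_at read 11.1 and -466 in wild type and -197 and 198 in knock-out. Rasgrp1 115925_at read -45.0 and -112 in wild type and -175 and 14.8 in knock-out.

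The 8 largest rises on these lists began with surface proteins and phosphatases. Ptpn22, a phosphatase that counters Lck and Zap70, was listed below 0 on both wild type arrays (-17.6 ± 2.26) and reached 194 ± 30.9 on 92356_at. The log2 change was 3.13 ± 0.23 (limma, adjusted p = 0.00118). Its other probe set, 161848_r_at, was too low to test and overlapped, at 12.5 and 6.30 in wild type and 14.0 and -5.30 in knock-out. Ptprc, the phosphatase CD45 that keeps Lck active and is carried by nearly all leukocytes, rose by 2.80 ± 0.15 from 56.4 ± 11.1 to 542 ± 32.4 (adjusted p = 5.09e-04), on 2 of 2 tested probe sets, while another, 101297_at, was too low to test and lower in knock-out (-7.20 and 2.30 against -22.1 and -14.3). Thy1, a surface glycoprotein of T cells that fibroblasts and neurons also make, rose by 2.70 ± 0.18 from 26.1 ± 3.39 to 309 ± 43.3. Ptpn6, the phosphatase SHP-1 of blood cells, rose by 1.96 ± 0.12 from 91.2 ± 10.5 to 428 ± 6.64. None of these 4 is made by T cells alone.

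Ccr7, the receptor that guides naive lymphocytes to lymph nodes, rose by 2.27 ± 0.08, from 137 and 149 to 784 and 787. Ltb, lymphotoxin beta of lymphocytes, rose by 2.04 ± 0.15 from 297 ± 12.4 to 1309 ± 256. Ikzf1, a transcription factor of lymphoid cells, rose by 1.55 ± 0.23 from 31.7 ± 11.2 to 139 ± 5.16 on 102293_at (limma, adjusted p = 0.00742). Of its probe sets too low to test, 102294_at overlapped, at 53.1 and 62.1 in wild type and 73.4 and -60.4 in knock-out. The other, 105208_at on MG-U74B, was below 0 on all 4 arrays. Lef1, the close relative of Tcf7 in T cells, read 22.1 and 27.9 in wild type and 146 and 336 in knock-out. It rose by 2.32 ± 0.41 on 103628_at (limma, adjusted p = 0.0128), and this call ended without a filter (0.0656), without wild type replicate 1 (0.0614) and without wild type replicate 2 (0.0545). The other Lef1 probe sets, too low to test, did not show such a level: 103629_g_at was below 0 on all 4 arrays, and 111398_at on MG-U74B read 73.3 and 82.8 in wild type and -978.5 and 77.9 in knock-out.

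The 3 falls were smaller, and all 3 genes act downstream of many receptors in many cell types. Plcg1, the phospholipase that splits membrane lipid after receptor engagement, fell by 0.56 ± 0.09 in log2 units, with means of 452 ± 9.69 and 298 ± 24.6 (limma, adjusted p = 0.00836). Fos and Jun, the subunits of the transcription factor AP-1, fell by 0.49 ± 0.06 and 0.62 ± 0.17 on the log2 scale, Fos from 534 ± 15.6 to 373 ± 7.71 and Jun from 304 ± 11.7 to 192 ± 44.2 (limma, adjusted p = 0.00527 and 0.0430). A further Fos probe set, 161716_at, was too low to test and overlapped, at 24.9 and 7.90 in wild type and 34.3 and 23.6 in knock-out. The Jun call ended with no filter (0.124), with quantile normalization (0.0527) and without a variance trend (0.0581). Without wild type replicate 1, 1 of the 3 falls was left, with Plcg1 at adjusted p = 0.0688 and Jun at 0.172. Without wild type replicate 2 none was left (0.0601, 0.142 and, for Fos, 0.0591), with 2 at an unadjusted p under 0.05 in limma.

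On MG-U74B 12 pathway genes were tested, of which 1 rose, 0 fell and 11 did not pass, with a median of -0.02 against 0.11 over all tested genes. At an unadjusted p under 0.05 in limma, 4 were higher and 1 was lower. Of 7 regulators 2 rose and 5 did not pass, beside 9.61% of all tested genes that rose and 9.61% that fell. Il2rb, a receptor chain for interleukins 2 and 15 on T and natural killer cells, read 77.5 and -23.8 in wild type and 617 and 654 in knock-out. It rose by 3.70 ± 0.72 (limma, adjusted p = 0.0328), and it too reached the level for testing only through its knock-out arrays. Ets1 and Ikzf1, transcription factors of lymphocytes, rose by 2.26 ± 0.29 and 2.14 ± 0.25, Ets1 from 134 ± 47.7 to 722 ± 53.1 and Ikzf1 from 146 ± 12.2 to 736 ± 174. Probe sets on MG-U74A also rose for Il2rb, by 1.13 ± 0.14 on 100764_at, and for Ets1, by 1.54 ± 0.11 on 94332_at (limma, adjusted p = 0.00463 and 0.00111). On MG-U74B the calls of Il2rb, Ets1 and Ikzf1 each ended when any 1 of the 4 arrays was left out. Without wild type replicate 1 or 2, limma called 0 of the 7861 probe sets of this type, with 1873 and 1816 at an unadjusted p under 0.05.

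**Figure D2:**
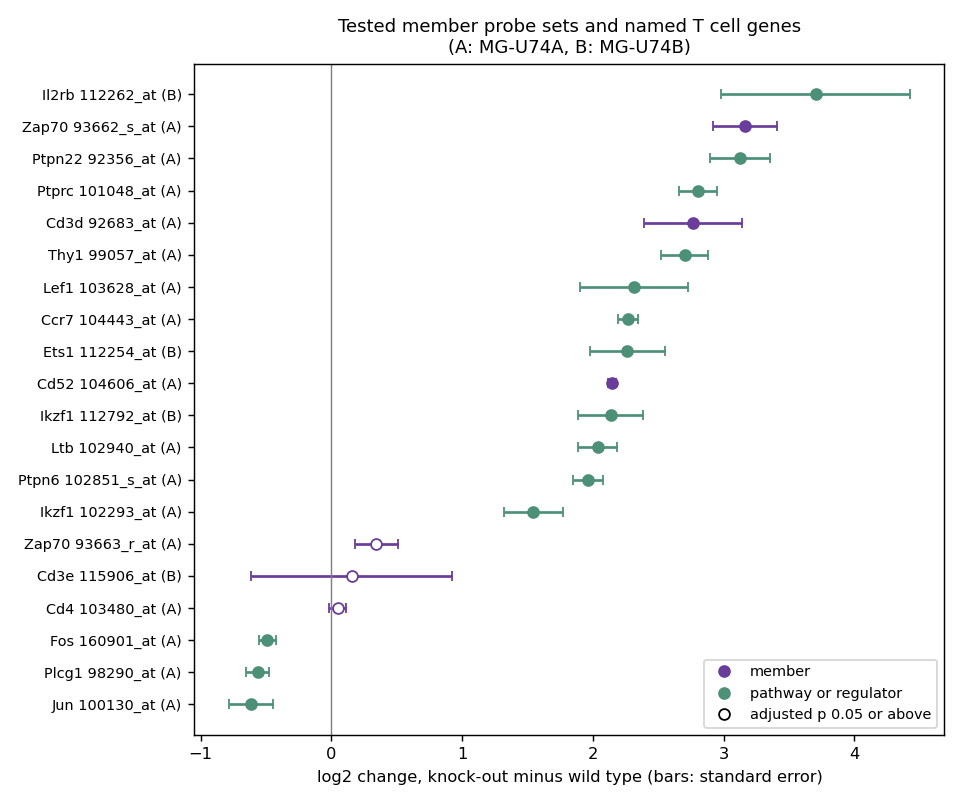
Log2 change (knock-out minus wild type, horizontal axis, bars for the standard error) of the 6 tested member probe sets in purple and of 14 probe sets of pathway and regulator genes in green, with open points where adjusted p was 0.05 or above. Zap70 93662_s_at, Cd3d 92683_at and Cd52 lie among the larger rises, at 3.16, 2.77 and 2.15, while Cd4, Cd3e and Zap70 93663_r_at are open points.

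On MG-U74A 27 probe sets of 24 pathway genes were too low to test. Both knock-out arrays lay above both wild type arrays for 14 of them, with all 4 values below 0 in 2 of the 14. They lay below for 7, and the genotypes overlapped for 6. Among all MG-U74A probe sets but controls 33.6% had both knock-out arrays above, so the count of 14 is a description. On MG-U74B 4 pathway probe sets were too low to test, with 0 above, 1 below and 3 that overlapped. The following genes are named after their values were seen. Il2ra, the high-affinity interleukin 2 receptor chain of activated and regulatory T cells, was lower in knock-out, at 40.5 and 49.6 in wild type and 24.4 and 29.5 in knock-out. Nck1, an adaptor protein, overlapped, at 40.3 and 42.5 against 25.9 and 51.4. Cd8b1, the partner chain of Cd8a, read 15.0 and 4.10 in wild type and 66.1 and 62.8 in knock-out, so its groups did not overlap. Cd247, the zeta chain, read 38.0 and 26.4 against 90.8 and 47.9 on 102287_at, also without overlap. Its other probe set, 102288_at, was tested and went the other way without passing, at 83.8 and 110 in wild type and 64.7 and 87.7 in knock-out (log2 change -0.27 ± 0.22, limma, adjusted p = 0.370). Cd2, an adhesion molecule of T and natural killer cells, was listed below 0 in wild type and read 66.7 and 113 in knock-out. Ctla4, an inhibitory receptor of activated and regulatory T cells, was below 0 in wild type and read 125 and 127 in knock-out. Cd2 and Ctla4 are surface proteins outside the receptor complex.

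The variable segments of the receptor chains, also examined after values had been seen, were read by 12 probe sets for 8 genes on MG-U74A and by 1 on MG-U74B. They belong to multigene families whose members share sequence, so the names are uncertain, and no test is given. A beta chain probe set named Trbv1, 93105_s_at, read 301 and 279 in wild type and 2257 and 1997 in knock-out. The second Trbv1 probe set, 94726_at, was below 0 in wild type and read 70.4 and 177 in knock-out. Both therefore had knock-out arrays above wild type. Of 3 alpha chain probe sets named Trav9d-3, 97944_f_at read 161 and 176 against 746 and 798, and 97945_at was below 0 in wild type and read 370 and 384 in knock-out. The third, 93224_at, read 86.5 and 98.6 against 83.2 and 15.6, with knock-out the lower. The gamma chain segment Trgv1 overlapped, at 253 and 154 against 238 and 214. In all, 5 of the 12 had both knock-out arrays above both wild type arrays, 1 of them, Trav6-2, with all 4 values below 0. Beside the 33.6% of all MG-U74A probe sets in that order, this share is no result about the segments.

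**Figure D3:**
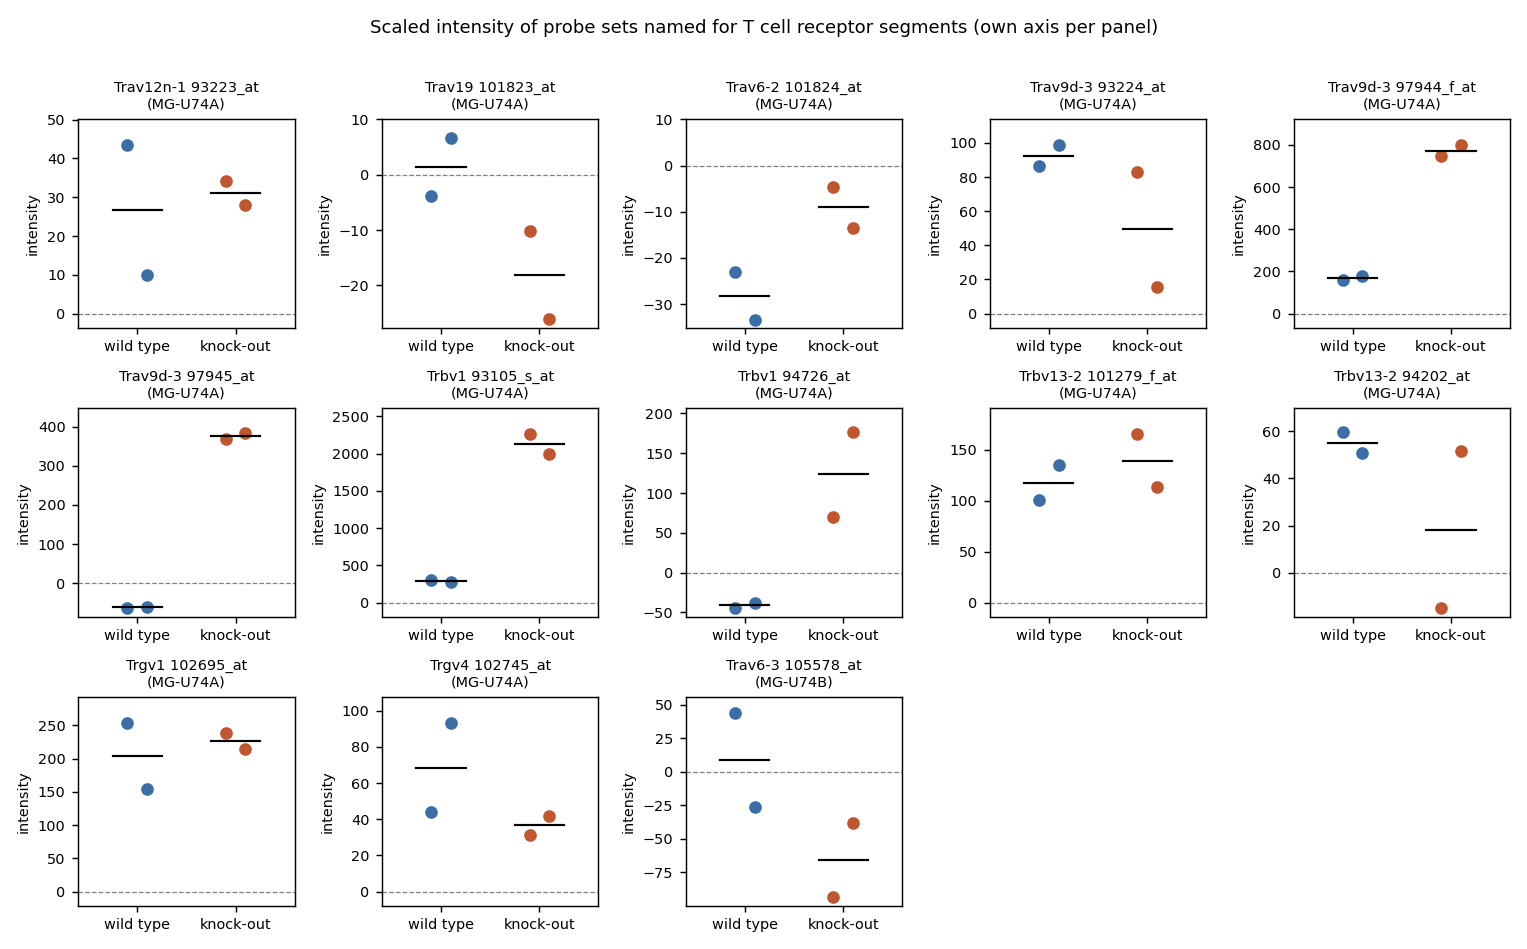
Scaled intensity (arbitrary units, a separate axis in each panel) of the 13 probe sets named for T cell receptor variable segments, with 1 point per array, wild type in blue and knock-out in orange; the black bar is the mean of 2 arrays and the dashed line is 0. Trbv1 93105_s_at rises from a mean of 290 to 2127 and Trav9d-3 97944_f_at from 168 to 772, while Trgv1, Trgv4 and Trbv13-2 do not separate upward.

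Markers of other cell types moved on the same MG-U74A arrays as the members. Beside the counts of markers below stand all tested genes of this type, of which 22.7% rose and 30.2% fell. Of 11 B cell markers with a probe set 8 were tested and 6 rose, with a summed intensity of 4939 to 4967 in wild type and 18803 to 19781 in knock-out. Among them Ighm, the immunoglobulin M heavy chain, read 2362 and 2324 against 12679 and 11699. Cd79a and Cd22 were at or below 0 on both wild type arrays, and Ighd on both knock-out arrays. Cd79a, 1 of the 6 that rose, thus reached the level for testing only through its knock-out arrays and had to differ. B cells also carry Cd52, and the part of B cells in its rise was not tested. Of 14 macrophage and dendritic cell markers 12 were tested and 10 rose, from sums of 3370 to 3625 to sums of 9187 to 9265, with Fcer1g at or below 0 in wild type. Of 9 natural killer and cytotoxic markers 5 were tested and 2 rose, with Ctsw at or below 0 in both genotypes. The sums were 434 to 483 in wild type and 1094 to 1164 in knock-out. Gzmb, 1 of the 2, read 154 and 137 in wild type and 581 and 628 in knock-out (limma, adjusted p = 4.96e-04). The 3 that did not pass included Klrk1 and Klrd1. Gzma, the other that rose, had a wild type mean of 22.9 ± 17.5. It reached the level for testing only through its knock-out arrays, so it had to differ. Beside the 22.7% of all tested genes that rose, 2 of 5 is no result about these markers. Without knock-out replicate 2, 1 of these 2 rises was left. Natural killer cells also carry Zap70, Cd2 and Il2rb, and their part was not tested.

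Markers of lymph node vessels and follicles rose in 2 of 4 tested genes of 5, Glycam1 and Ltb, with Cxcl13 at or below 0 in wild type. Ltb is also counted among the regulators that rose, by the same probe set. The sums of this list were 749 to 978 in wild type and 4651 to 4706 in knock-out. Glycam1, a mucin of lymph node vessels, read 64.6 and 64.2 in wild type and 2335 and 2311 in knock-out. The part of lymphoid tissue in the rise of Cd52, Cd3d and Ccr7 was not tested. Of 5 thymocyte markers 3 were tested, with sums of 399 to 540 in wild type and 615 to 799 in knock-out. Only Cd1d1 rose, which many cell types carry, from 59.7 and 38.2 to 190 and 257. It reached the level for testing only through its knock-out arrays, so it had to differ. Ptcra was lower in knock-out without passing, at 217 and 223 against 178 and 154 (limma, adjusted p = 0.0652), and Rag1 overlapped. Beside the 22.7% of all tested genes that rose, 1 of 3 is no result about these markers. Rag2, which thymocytes need to rearrange the receptor genes, was at or below 0 in both genotypes. Of the islet endocrine markers, which check the labelled tissue, Ins2 was at hand in both genotypes. It read 33663 and 34048 in wild type and 29628 and 26560 in knock-out. Pdx1 and Slc2a2 came near 0 in knock-out. Pdx1 read 155 and 264 in wild type against 23.1 and -6.10, and Slc2a2 705 and 662 against 31.5 and 13.2. All 13 tested endocrine markers fell, from sums of 146205 to 147019 to sums of 88129 to 97201, as did all 7 tested acinar markers, from 39213 to 39523 to 4967 to 5562. No acinar or endocrine marker was at or below 0 on both arrays of a genotype. Pdx1, Slc2a2 and the acinar marker Clps reached the level for testing only through their wild type arrays, so they had to differ.

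**Figure D4:**
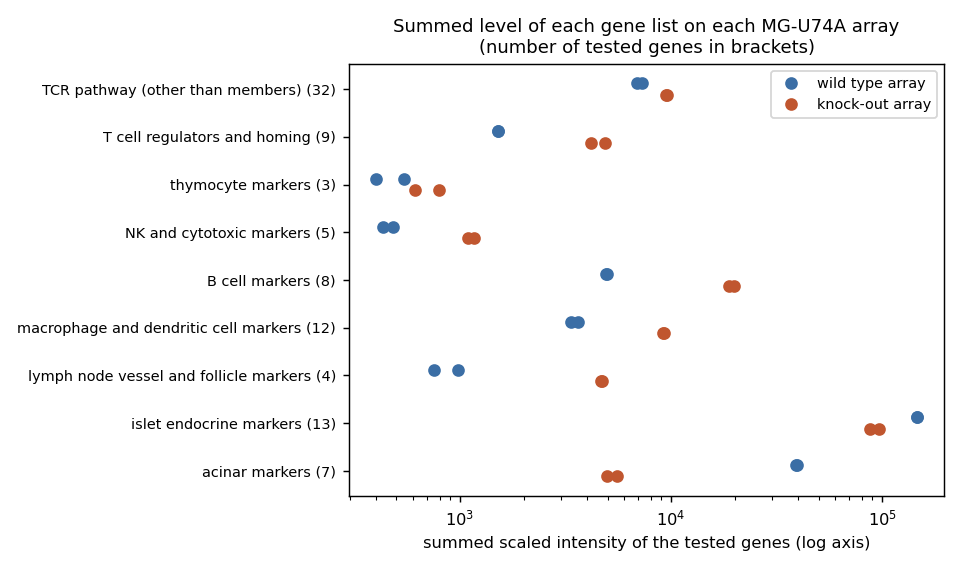
Summed scaled intensity (arbitrary units, log axis) of the tested genes of each list on each MG-U74A array, wild type in blue and knock-out in orange, with the number of tested genes in brackets. The endocrine and acinar lists are lower on both knock-out arrays, and every other list is higher. Ltb is counted in both the regulator and the lymph node vessel list.

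RNA quality and hybridisation controls differed with genotype on the same arrays. The ratio of the Gapdh probe sets for the 3′ and 5′ ends was 3.19 ± 0.0499 in wild type and 0.943 ± 0.00849 in knock-out on MG-U74A, and 3.10 ± 0.0382 and 0.907 ± 0.00964 on MG-U74B. The same ratio for actin differed less, at 1.46 ± 0.0157 and 1.14 ± 0.0269 on MG-U74A. BioB, a hybridisation control, averaged 183 ± 17.0 in wild type and 3820 ± 317 in knock-out there. The values of the genotypes did not overlap, so these differences and genotype cannot be told apart in the members' changes. Their part in the values of Cd3d, Zap70 and Cd52 was not tested.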

How the data were processed

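Each file holds 1 intensity per probe set of 1 array, and the deposited intensities had been scaled by the authors to a mean of 250.0 without the highest and lowest 2% (from the values). The sources used here do not give the software. The members and gene lists were chosen with earlier results of these data known.

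Each array was scaled by 1 factor to the common trimmed mean of its type. Values below 0 were set to 0, 25 (10% of that mean) was added, and log2 was taken. Probe sets with a mean over 4 arrays below 62.5 (25%) and 66 control probe sets of each type were not tested, so 7517 (60.2%) of the 12488 on MG-U74A were tested, and of the 12477 on MG-U74B 7861 (63.0%). Between 18.4% and 26.7% of an array's values were below 0. The number of arrays limits the precision.

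Knock-out was compared with wild type on each type with limma 3.58.1 in R 4.3.3 (lmFit, eBayes with a mean-variance trend), two-sided, with Benjamini-Hochberg adjustment over all tested probe sets and a threshold of 0.05. An exact permutation test of 2 against 2 arrays cannot go below p = 0.333. The procedure was tested on simulated data: nearly all changes kept their sign on both types, and fewer passed the threshold on MG-U74B. Far fewer probe sets were changed there than were called here on either type, so what it recovered does not carry over to these calls.

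Probe sets took their gene from the array annotation by its gene identifier or symbol, updated through a RefSeq table of GRCm38.p6. 1 symbol was given for 10855 probe sets of MG-U74A, several for 396 and none for 1237; for MG-U74B the numbers were 10603, 178 and 1696. Probe sets with several symbols were left unnamed. All member probe sets are given. From the pathway and regulator lists, each gene by its tested probe set with the highest mean, the 8 largest rises and 5 largest falls past the threshold were to be named on MG-U74A (for MG-U74B, 4 and 3), and the genes past it were fewer in 3 of these 4 cases. From marker lists the 3 tested genes with the highest mean could be named. Cd1d1 is among these, and genes listed at or below 0 are named as a complete set. Marker genes that reached the level for testing through the arrays of 1 genotype only are named as well.

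Alternatives were other constants, other filters, a floor, quantile normalization, no variance trend, a replicate block, and leaving out each array. Counts of the marker and regulator lists under these settings were added after the data were seen. The replicate numbers did not pair the arrays: deviations of same-numbered arrays correlated at 0.024 (MG-U74A) and 0.032 (MG-U74B).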

Additional observations from a re-analysis of the deposited data

How the results depend on the processing

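The 3 member calls on MG-U74A were 3 under every alternative but 2: with the filter at 50% of the trimmed mean 1 was left, Cd52, because Cd3d 92683_at and Zap70 93662_s_at were then not tested, and with no filter there were 4. Leaving out any 1 array gave 3. The log2 change of Cd3e 115906_at ran from -0.60 to 0.91 when arrays were left out, with -0.50 without wild type replicate 2 and -0.60 without knock-out replicate 2. The 11 pathway genes that rose on MG-U74A were between 9 and 15. The 3 that fell were between 0 and 3 when arrays were left out. On MG-U74B the 1 pathway gene that rose became 0 with a constant of 5%, 0 with no filter and 0 without a variance trend, where limma gave 4, 5 and 2 at an unadjusted p under 0.05. It was 0 whichever array was left out, with 1 to 2 at an unadjusted p. The count of 0 that fell there, with 1 at an unadjusted p, became 1 with a constant of 20% and 1 with a floor at the constant, and lay between 0 and 1 when arrays were left out. The cause was not tested in these cases. The same number does not pair arrays here. With the replicate block the members past the threshold on MG-U74A were 3, pathway genes 10 up and 3 down, and on MG-U74B 2 rose where 1 had. The 2 regulators that rose on MG-U74B became 0 when any array was left out and 1 with no filter.

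With 2 arrays a genotype, probe sets at or below 0 in wild type have no spread there, and the size of their change follows the constant added. 6 of the 12 member probe sets were too low to test, and no probe set stood for Lck or Tcf7. Genotype, RNA quality and the hybridisation control cannot be told apart.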
